A study of Mus musculus with 16 samples.

Results

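The genes described here were measured in the newborn mouse lung. They code for proteins that release arachidonic acid, help to turn it into prostanoids, leukotrienes and related lipids, or inactivate prostaglandins. They are Pla2g4a, which releases the fatty acid, Ptgs1, Ptgs2, Ptges, Ptgis and Hpgd of the prostanoid branch, and Alox5ap, Alox5, Ltc4s and Alox15 of the lipoxygenase branch. Members were the probes, other than control spots, that carried one of these symbols or an unambiguous older synonym, which gave 10 genes and 15 probes of the 27729 named genes and 41174 probes on the array. All 10 genes passed the filter on dim probes, Alox15 through its 24 h arrays, as did 21631 genes in all, and every comparison was fitted and adjusted over those 21631 genes.

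Arachidonic acid is cut from membrane phospholipids by cytosolic phospholipase A2 and then enters one of the branches. Cyclooxygenases turn it into prostaglandin H2, from which terminal synthases make prostaglandin E2, prostacyclin and thromboxane, while 5-lipoxygenase, helped by its activating protein, makes leukotriene A4, the precursor of leukotriene B4 and the cysteinyl leukotrienes. In the lung these lipids act on vascular and airway smooth muscle, vessel permeability and leukocyte entry, and the lung is also a main site of prostaglandin breakdown.

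Lungs came from BALB/c mice that were 3 days old when exposed for 3 h to ozone at 1000 ppb or to filtered air. Tissue was taken 6 h or 24 h after the end of exposure, which gave 4 groups (ozone 6 h, air 6 h, ozone 24 h and air 24 h) of 4 arrays each. Each array held the labelled RNA of 1 whole lung, chosen at random from a larger group of pups. No group carried a transgene or deletion, controls were littermates kept in air, and all pups stayed with a dam during exposure.

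Each time had its own experiment and its own air lungs, and the 6 h arrays lay on other slides and were scanned on other days than the 24 h arrays. Pups of the 24 h groups were also older when tissue was taken. Age, time after exposure, slide and scan day therefore cannot be told apart in any comparison of 24 h with 6 h. Each of the 4 slides carried 2 ozone and 2 air arrays, so ozone and air could be compared within a slide. Between 65.0% and 83.9% of probes were well above background on an array, the highest share being that of ozone 6 h replicate 3, and no probe was saturated. Levels are log2 signals set against the 75th percentile of their own array, so that a probe at that percentile has a level of 0, and levels of different genes are not compared. The p-values measure the spread between these lungs, and their number limits the precision. In whole lung, fewer cells of a type and less RNA per cell cannot be told apart.

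The 2 cyclooxygenase genes are shown by the bases before their start sites because Ptgs2 is the textbook inducible form and Ptgs1 the steady one. RefSeq promoters (build GRCm38.p6) were found for 7 of the 10 genes. Both stretches are on the plus strand and run to the base before the start, Ptgs1 at chr2:36230176-36230425 and Ptgs2 at chr1:150099781-150100030, and capitals mark the C/EBP-type motif TTGCGCAA.
Ptgs1: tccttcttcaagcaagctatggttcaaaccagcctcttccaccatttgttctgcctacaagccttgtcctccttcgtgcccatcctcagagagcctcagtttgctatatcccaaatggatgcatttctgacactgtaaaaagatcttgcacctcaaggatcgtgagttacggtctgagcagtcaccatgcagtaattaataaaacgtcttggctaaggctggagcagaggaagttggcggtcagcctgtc
Ptgs2: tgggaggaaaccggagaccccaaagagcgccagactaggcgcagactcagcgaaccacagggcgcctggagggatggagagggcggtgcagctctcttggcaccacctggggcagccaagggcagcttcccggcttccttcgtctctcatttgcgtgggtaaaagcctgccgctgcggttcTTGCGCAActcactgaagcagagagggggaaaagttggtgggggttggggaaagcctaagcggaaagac
The motif begins at position -69 of Ptgs2, counted from the start, and is absent from this Ptgs1 stretch. A short run of Ptgs2 just after the start, at chr1:150100033-150100062 on the plus strand, held 2 more motifs that overlap, here in capitals: ACGTCA, part of a cyclic AMP response element, from base 13, and the E-box CACGTG, from base 17.
Ptgs2 after the start: agtcaccactACGTCACGTGgagtccgctt
Both strands were searched. Of 32851 promoters, TTGCGCAA was present in 0.183% over the whole window, which runs a little past the start, ACGTCA in 7.51% and CACGTG in 7.15%. A further motif searched for, TATAAA, was in 13.6%. It was in neither cyclooxygenase promoter but in a promoter of Pla2g4a and in that of Hpgd. Among the promoters found for the 10 genes, only that of Ptgs2 held TTGCGCAA, ACGTCA or CACGTG. A match is a run of letters, and positions are counted from the RefSeq start. Neither binding of a factor nor the start used in these lungs was measured.

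Ozone did not move any of the 10 genes past the threshold, an adjusted p of 0.05 from limma. At 6 h, 0 of 10 were called where 4.48% of all genes tested were called, and at 24 h 0 of 10 against 2.01%. The test of whether the ozone difference changed from 6 h to 24 h also called 0 of 10, against 0.0647% of all genes. Before adjustment, 1 of the 10, Pla2g4a, lay under 0.05 at 6 h, 0 at 24 h and 0 in the test of the change, beside 4540, 2878 and 2704 of all 21631 genes. Ozone and air arrays overlapped for all 10 genes at both times, whereas they did not overlap for 9.48% of all genes at 6 h and 11.8% at 24 h. The median difference of the 10 genes was 0.07 at 6 h and -0.041 at 24 h on the log2 scale, beside 0.07 and 0.02 over all genes tested. No tested member was called at 6 h or 24 h under any of 16 alternative settings, for the change under any of the 15 that gave it, or in the 16 fits that left out 1 array. The filter requiring all 16 arrays tested 8 of the 10 genes, without Ptgs2 and Alox15. The counts over all genes were less steady: without 1 array they ran from 196 (without air 6 h replicate 4) to 1690 (without air 6 h replicate 2) at 6 h, against 970. At 24 h they ran from 263 (without air 24 h replicate 1) to 530 (without air 6 h replicate 3), against 434. For the change they ran from 0 to 263 (without air 6 h replicate 2), against 14.

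The larger differences were between the air groups. From air 6 h to air 24 h, 4 of the 10 genes were called, 1 higher (Alox15) and 3 lower (Pla2g4a, Ptgs2 and Ltc4s), the latter without overlap of the groups. The Alox15 probe was well above background on 1 of 4 air arrays at 6 h and 4 of 4 at 24 h, so it passed the filter through the later arrays, and its call carries little weight. Of all genes, 49.9% were called in that comparison, 21.4% higher and 28.5% lower. Groups did not overlap for 48.9%, 26.4% of all genes being lower in this way. With Alox15 set aside, the 3 remaining calls were all lower, and their share is near the background share called lower. The median over the 10 genes was -0.088, against 0.01 over all genes. The call for Pla2g4a held under every alternative that gave a value. Those for Ptgs2, Ltc4s and Alox15 did not hold with another background correction, normexp with an offset of 50, as given with each gene.

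**Figure D1:**
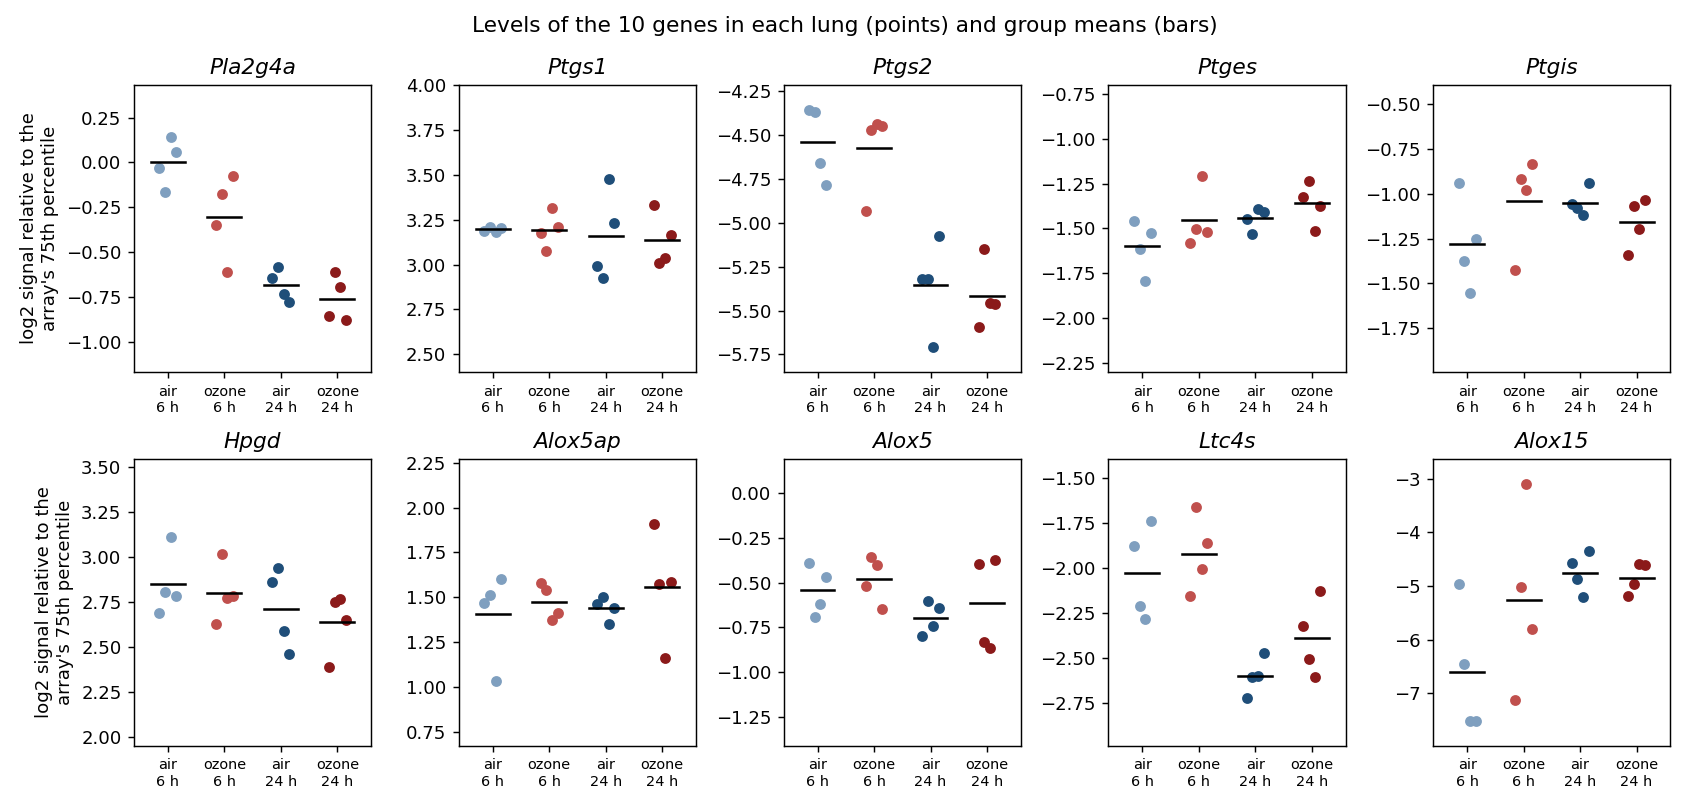
Levels of the 10 genes in every lung, with 1 panel per gene and 1 column per group of 4 lungs; the vertical axis is the log2 signal relative to the array's 75th percentile, points are arrays and bars are group means. In every panel the ozone points overlap the air points of the same time, while Pla2g4a, Ptgs2 and Ltc4s lie lower in air at 24 h than in air at 6 h.

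Pla2g4a codes for cytosolic phospholipase A2 alpha, the enzyme that frees arachidonic acid on a calcium signal. Its brighter probe lies at chr1:151677133-151677192 (mm9, the build in the array headers). In air at 6 h the levels were -0.032, -0.16, 0.14 and 0.056, and in ozone at 6 h they were -0.35, -0.18, -0.61 and -0.074. In air at 24 h they were -0.64, -0.58, -0.73 and -0.78, and in ozone at 24 h -0.86, -0.61, -0.70 and -0.88. At 6 h, ozone replicates 1, 2 and 3 lay below all 4 air lungs, replicate 2 only just, and replicate 4 within the air range. At 24 h, ozone replicates 1 and 4 lay below the air lungs and the others among them. The 6 h difference was -0.30 ± 0.11 (SE, n = 4 per group), or 1.23-fold lower with ozone (95% interval 1.05 to 1.45), with an adjusted p of 0.119 in limma, which misses the threshold.

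The second Pla2g4a probe gave -0.26 ± 0.11 at 6 h (adjusted p = 0.206 in the limma fit over all probes), so both probes were on the same side. Within slides the 6 h difference was -0.16 for replicates 1 and 2 and -0.44 for replicates 3 and 4. Without ozone 6 h replicate 3, the lowest lung, it was -0.20 (adjusted p = 0.299), 1 of the 16 left-out fits, whose adjusted p ran from 0.0611 to 0.299. At 24 h the ozone difference was -0.077 ± 0.11 (adjusted p = 0.879, limma). From air 6 h to air 24 h, by contrast, Pla2g4a fell by 0.68 ± 0.11, 1.61-fold (95% interval 1.37 to 1.88, adjusted p = 4.5e-05 in limma), with all 4 later lungs below all 4 earlier ones. Its second probe fell by 0.57 ± 0.11 in the fit over all probes (adjusted p = 0.000413, limma).

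Ptgs1 codes for cyclooxygenase-1, the form that most tissues make steadily, and its probe lies at chr2:36105892-36105951 (mm9). Levels in air at 6 h were 3.19, 3.21, 3.18 and 3.21, and in ozone at 6 h 3.18, 3.08, 3.32 and 3.21. At 24 h they were 2.99, 2.93, 3.48 and 3.23 in air and 3.33, 3.01, 3.04 and 3.17 in ozone. The groups lay on top of each other, the 4 air lungs at 6 h being the closest set (SD 0.014) and those at 24 h the widest (SD 0.25). The ozone difference was -0.0027 ± 0.10 at 6 h (adjusted p = 0.991) and -0.021 ± 0.10 at 24 h (adjusted p = 0.979, limma). The interval at 6 h, 0.860-fold to 1.16-fold, bounds a difference in either direction, and that of air 24 h against air 6 h was 0.837-fold to 1.13-fold (adjusted p = 0.767).

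Ptgs2 codes for cyclooxygenase-2, the form induced by cytokines and injury. Its brighter probe, at chr1:151954744-151954803 (mm9), was printed in 10 spots and was well above background on 4 of 4 arrays in every group except ozone 6 h, with 3 of 4. In air at 6 h the levels were -4.36, -4.37, -4.66 and -4.79, and in ozone at 6 h -4.93, -4.47, -4.44 and -4.45. At 24 h they were -5.32, -5.32, -5.71 and -5.07 in air and -5.60, -5.15, -5.46 and -5.46 in ozone. At 6 h, 3 ozone lungs fell inside the air range and replicate 1 lay below it, while at 24 h all 4 ozone lungs fell inside it.

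The ozone difference of Ptgs2 was -0.030 ± 0.22 at 6 h (95% interval 0.709-fold to 1.35-fold, adjusted p = 0.95) and -0.061 ± 0.22 at 24 h (0.694-fold to 1.32-fold, adjusted p = 0.968, limma). The 6 h value changed sign with the setting, from -0.51 in the authors' deposited table to 0.28 within the slide of replicates 3 and 4, and was past the threshold in none. The second Ptgs2 probe, which overlapped between groups as well, gave 0.39 ± 0.27 at 6 h and 0.30 ± 0.27 at 24 h (adjusted p = 0.424 and 0.785, limma over all probes). No direction with ozone can be given for this gene at this signal.

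Between the air groups the brighter Ptgs2 probe fell by 0.81 ± 0.22, 1.76-fold (95% interval 1.27 to 2.43, adjusted p = 0.00524 in limma), and the 4 lungs at 24 h lay below the 4 at 6 h. Its second probe gave -0.25 ± 0.27 (adjusted p = 0.469), and the mean of the probes -0.53 (adjusted p = 0.0699). With normexp background correction and its offset of 50 the sign turned, to 0.23 (adjusted p = 0.592, limma). The same setting put the median of all genes at 0.20. The direction therefore rests on this setting, in which background removal and offset were not told apart.

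Ptges codes for microsomal prostaglandin E synthase-1, the inducible terminal synthase for prostaglandin E2 (chr2:30747838-30747897, mm9). Its group means ± SD (n = 4 each) were -1.60 ± 0.14 in air and -1.45 ± 0.17 in ozone at 6 h, and -1.44 ± 0.064 in air and -1.36 ± 0.12 in ozone at 24 h. The means lay close together, and arrays overlapped in each comparison. The ozone difference was 0.14 ± 0.10 at 6 h (0.953-fold to 1.28-fold, adjusted p = 0.43) and 0.084 ± 0.10 at 24 h (adjusted p = 0.846, limma). Air at 24 h against air at 6 h gave 0.15 ± 0.10 (adjusted p = 0.223).

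Ptgis codes for prostacyclin synthase, an endothelial and smooth muscle enzyme whose product widens pulmonary vessels (chr2:167032305-167032364, mm9). In air at 6 h the levels were -0.94, -1.38, -1.55 and -1.25, and in ozone at 6 h -1.42, -0.92, -0.98 and -0.84. At 24 h the range was -1.12 to -0.94 in air and -1.34 to -1.03 in ozone. At 6 h, ozone replicates 2 and 4 lay above the highest air lung, replicate 3 just below it and replicate 1 near the low end, so the groups overlapped. The ozone difference was 0.24 ± 0.13 at 6 h (0.971-fold to 1.44-fold, adjusted p = 0.316) and -0.11 ± 0.13 at 24 h (adjusted p = 0.849), and the change between them was -0.35 ± 0.19 (adjusted p = 0.461, limma). Within slides the 6 h difference was -0.012 for replicates 1 and 2 and 0.50 for replicates 3 and 4. Air at 24 h against 6 h gave 0.23 ± 0.13 (adjusted p = 0.168), which passed the threshold, among all settings tried, only without air 6 h replicate 1 (0.34, adjusted p = 0.0382).

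Marker sums, here and below, add linear signals, so the brightest probes of a list weigh most in them. Beside Ptgis, the 6 endothelial markers summed to between 53.9 and 69.4 times the 75th percentile signal in ozone and between 37.2 and 58.0 in air at 6 h. In the same comparison all 6 lay above 0, as did 13277 of all 21631 genes, and 0 were called, against 4.48% of all genes. In air at 24 h the sum was between 59.3 and 73.7. Of the 6, 4 were called higher than in air at 6 h, against 21.4% of all genes. The 5 smooth muscle markers summed to between 101 and 134 in ozone and between 109 and 177 in air at 6 h, with 2 above 0, 3 below 0 and 0 called. In air at 24 h their sum was between 157 and 167. Of the 5, 3 were called higher and 1 lower than in air at 6 h, against 21.4% and 28.5% of all genes. The part of either marker list in the Ptgis values was not tested.

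Hpgd codes for 15-hydroxyprostaglandin dehydrogenase, which inactivates prostaglandins (chr8:58799399-58799458, mm9). Its group means ± SD (n = 4 each) were 2.85 ± 0.18 in air and 2.80 ± 0.16 in ozone at 6 h, and 2.71 ± 0.23 in air and 2.64 ± 0.18 in ozone at 24 h. The ozone differences, -0.047 ± 0.12 and -0.073 ± 0.12 (adjusted p = 0.845 and 0.907, limma), were smaller than the SD of any group. Its second probe gave -0.035 at 6 h and 0.045 at 24 h, likewise not called. From air 6 h to air 24 h the brighter probe gave -0.14 ± 0.12 (adjusted p = 0.374) and the dimmer one, fitted with all probes, 0.15 ± 0.12 (adjusted p = 0.292).

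**Figure D2:**
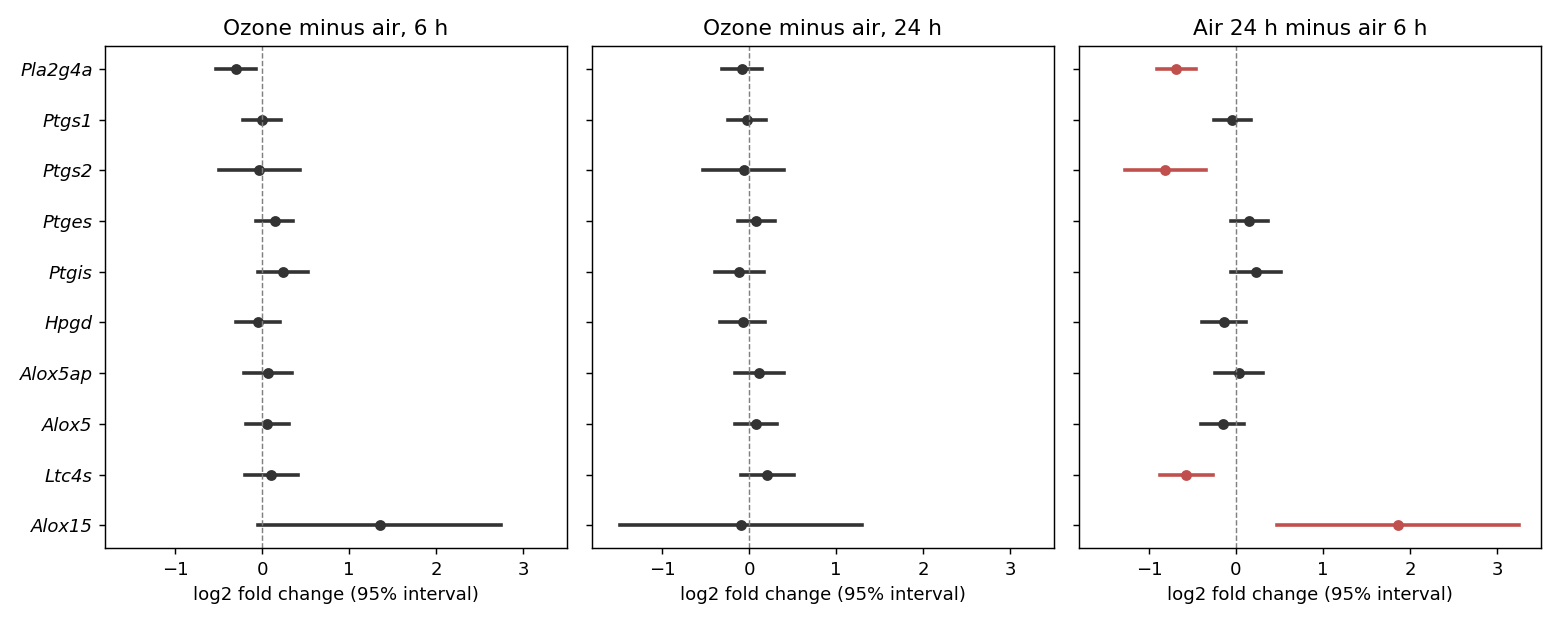
Log2 differences with 95% intervals for the 10 genes (vertical axis) in ozone against air at 6 h, ozone against air at 24 h, and air at 24 h against air at 6 h, from limma on 16 arrays; red marks an adjusted p under 0.05. The left and middle panels hold no red point, and the right panel shows Pla2g4a at -0.68, Ptgs2 at -0.81, Ltc4s at -0.57 and Alox15 at 1.86.

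Alox5ap codes for the 5-lipoxygenase activating protein, which presents arachidonic acid to the enzyme in the nuclear membrane of myeloid cells (chr5:150099347-150099406, mm9). Levels in air ranged from 1.03 to 1.60 at 6 h and from 1.35 to 1.50 at 24 h, and in ozone from 1.37 to 1.58 at 6 h and from 1.16 to 1.91 at 24 h. The ozone difference was 0.071 ± 0.13 at 6 h (adjusted p = 0.779) and 0.12 ± 0.13 at 24 h (0.896-fold to 1.32-fold, adjusted p = 0.819, limma). The air groups differed by 0.032 ± 0.13 (adjusted p = 0.856).

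Alox5 codes for 5-lipoxygenase itself, and 3 probes represented it. The brightest (chr6:116360326-116360385, mm9) ranged from -0.69 to -0.39 in air and from -0.64 to -0.36 in ozone at 6 h, and from -0.80 to -0.61 in air and from -0.86 to -0.37 in ozone at 24 h. At 24 h the ozone lungs were split, with replicates 1 and 4 at -0.40 and -0.37 above all air lungs and replicates 2 and 3 at -0.83 and -0.86 below them. The ozone difference was 0.061 ± 0.12 at 6 h (adjusted p = 0.782) and 0.080 ± 0.12 at 24 h (adjusted p = 0.884, limma).

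Between the air groups the 3 Alox5 probes did not give 1 answer. The brightest gave -0.15 ± 0.12 (adjusted p = 0.286), the next, which overlaps it in part, 0.030 ± 0.11 (adjusted p = 0.839), and the dimmest, at chr6:116362506-116362565, 0.81 ± 0.21 (adjusted p = 0.00322, limma over all probes). For the dimmest probe, levels were -3.45, -3.41, -3.63 and -3.38 in air at 6 h and -2.72, -2.48, -2.88 and -2.54 in air at 24 h, without overlap. No step over time can be given for Alox5 from these probes together.

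**Figure D3:**
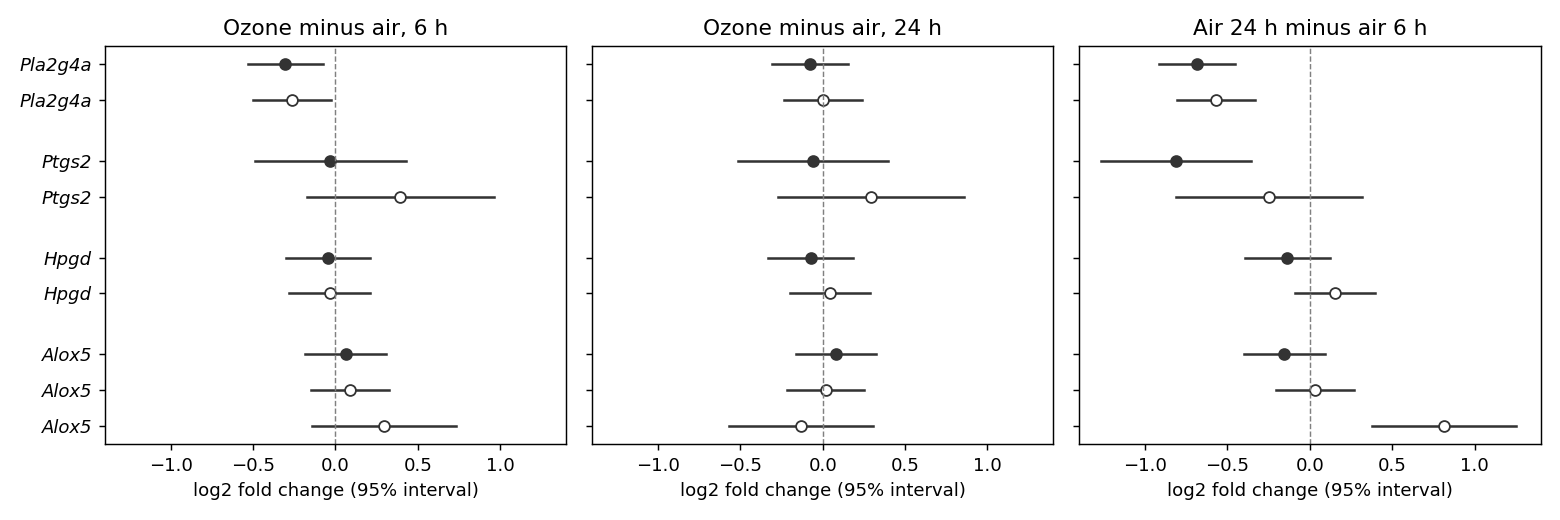
Log2 differences with 95% intervals for each probe of the 4 genes with several probes, Pla2g4a, Ptgs2, Hpgd and Alox5 (vertical axis), in the same comparisons; the filled point is the probe that stands for the gene and open points are its other probes. The Pla2g4a probes lie together in every panel, while in the right panel the dimmest Alox5 probe, at 0.81, lies apart from the others.

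Ltc4s codes for leukotriene C4 synthase, which makes the first cysteinyl leukotriene in mast cells, eosinophils and macrophages (chr11:50050522-50050581, mm9). Levels in air at 6 h were -1.88, -2.21, -2.28 and -1.74, and in ozone at 6 h -2.16, -1.66, -2.00 and -1.86. At 24 h they were -2.72, -2.61, -2.60 and -2.47 in air and -2.32, -2.51, -2.61 and -2.13 in ozone. The 6 h groups were mixed, and at 24 h ozone replicates 1 and 4 lay above all air lungs. The ozone difference was 0.11 ± 0.14 at 6 h (adjusted p = 0.69) and 0.21 ± 0.14 at 24 h (0.935-fold to 1.43-fold, adjusted p = 0.622, limma).

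From air 6 h to air 24 h Ltc4s fell by 0.57 ± 0.14, 1.49-fold (95% interval 1.20 to 1.84, adjusted p = 0.00305 in limma), and the 4 later lungs lay below the 4 earlier ones. With normexp the step was -0.14 (adjusted p = 0.516). Markers of cells known to make this enzyme are given for the same comparison, in which 21.4% of all genes were called higher and 28.5% lower. Of 7 macrophage markers, 1 was called higher and 5 lower, and their sum ran from 19.9 to 27.1 in air at 6 h and from 11.2 to 12.3 in air at 24 h. Of 6 mast cell markers tested, 2 were called higher and 1 lower (sum 12.4 to 13.7, then 14.9 to 18.0), and of 5 eosinophil markers, 2 higher and 1 lower (sum 1.46 to 2.14, then 2.18 to 3.31). Their defining markers Marco and Cpa3 were well above background on 16 of 16 arrays and Epx on 15, and their part in the Ltc4s values was not tested.

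Alox15 codes for 12/15-lipoxygenase, the enzyme of resident macrophages and eosinophils that makes hydroxy acids and lipoxin precursors (chr11:70159115-70159339, mm9). Its probe was well above background on 1 of 4 arrays in air at 6 h, 1 of 4 in ozone at 6 h, and all arrays at 24 h. Levels in air at 6 h were -4.97, -6.45, -7.52 and -7.51, and in ozone at 6 h -7.12, -5.02, -3.09 and -5.81. At 24 h they were -4.57, -4.88, -5.21 and -4.34 in air and -5.20, -4.97, -4.59 and -4.62 in ozone. The arrays at 6 h were widely spread and overlapped, the only ones well above background being air replicate 1 and ozone replicate 3, and the 24 h groups overlapped closely. Its SD within groups was 1.06, whereas the other 9 genes lay between 0.13 and 0.23 and the median gene at 0.19.

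No fold is given for Alox15 with ozone at 6 h, since only 1 of 4 arrays in each group was well above background. The ozone difference at 6 h was 1.35 ± 0.66 on the log2 scale (95% interval -0.041 to 2.75, adjusted p = 0.252, limma). It came from the slide of replicates 3 and 4 (3.06, adjusted p = 0.0544), whereas replicates 1 and 2 gave -0.36, and without ozone 6 h replicate 3, the array with the most probes above background, it was 0.63 (adjusted p = 0.598). Without ozone 6 h replicate 1, the lowest ozone lung, it was 1.97 (adjusted p = 0.0934). At 24 h it was -0.093 ± 0.66 (adjusted p = 0.987). Between the air groups the fitted difference was 1.86 ± 0.66, higher at 24 h (adjusted p = 0.0262, limma), with overlapping arrays. It is set against readings of which 3 of 4 were not well above background, so no fold is given for it. That call was lost with normexp (0.64, adjusted p = 0.181), with the replicate number as a block (adjusted p = 0.0575), and without air 6 h replicate 3 (1.56, adjusted p = 0.0808), air 6 h replicate 4 (1.56, adjusted p = 0.0826), air 24 h replicate 1 (1.80, adjusted p = 0.0561) or air 24 h replicate 4 (1.73, adjusted p = 0.0659).

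Within slides at 6 h, 3 genes were higher and 1 lower with ozone on both slides, and 6 had opposite signs. At 24 h, 2 were higher, 3 lower and 5 opposed. The share of all genes with opposite signs was not counted, so nothing particular to the 10 genes is read from these counts. Deviations of the genes from their group means were compared over the 16 lungs for all 45 pairs, with permutation within groups. The highest Pearson r was that of Alox5 and Ltc4s, 0.705 (permutation p = 0.0135, adjusted p = 0.13), with Spearman's rho of 0.653 (p = 0.0212, adjusted p = 0.206) and r of 0.600 without the 2 arrays farthest from the median. The lowest was that of Ptgs1 and Hpgd, -0.698 (permutation p = 0.0141, adjusted p = 0.13), with rho of -0.665 (p = 0.032, adjusted p = 0.206) and r of -0.704 without such arrays. No pair passed the threshold after adjustment over the 45 pairs.

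The rest of the eicosanoid pathway was described from a list of 62 other genes, of which 61 had a probe and 55 passed the filter. With ozone at 6 h, 0 of the 55 were called (13 lay under an unadjusted p of 0.05 in limma, beside 4540 of all 21631 genes), and the test of the change from 6 h to 24 h called 0 as well (10 under 0.05, beside 2704). At 24 h, 2 of the 55 were called, both higher. The median difference of the 55 was 0.028 at 6 h and 0.064 at 24 h, beside 0.07 and 0.02 over all genes tested.

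Both genes called at 24 h were phospholipases, 2 of the 16 tested, where 2.01% of all genes were called and 0.684% called higher. Plaat3, an acyltransferase of adipose and other tissues with phospholipase A activity, had levels of 0.13, 0.13, 0.34 and 0.18 in air and 0.89, 0.55, 0.41 and 0.59 in ozone at 24 h. All 4 ozone lungs lay above the air lungs, and the difference was 0.41 ± 0.10 (adjusted p = 0.0449, limma). Pla2g2d, a secreted phospholipase of lymphoid and myeloid cells, had levels of -4.17, -4.11, -4.30 and -4.34 in air and -3.66, -3.65, -3.54 and -3.18 in ozone at 24 h. Again the groups did not overlap, and the difference was 0.72 ± 0.18 (adjusted p = 0.0488, limma). In either direction, ozone and air did not overlap for 11.8% of all genes at 24 h. Of the 55 listed genes, 5 lay wholly above and 0 wholly below air.

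Both calls were lost under most settings. Pla2g2d was called in 5 of 16 alternatives and 2 of 16 left-out fits, and Plaat3 in 6 of 16 and 6 of 16, and the replicate block and either slide alone lost both. The mean of the Plaat3 probes gave 0.24 (adjusted p = 0.532), and normexp turned Pla2g2d to -0.25 (adjusted p = 0.544). Left-out fits called between 0 and 2 of the 55 genes at 24 h, and leaving out any 1 lung of the 24 h groups lost at least 1 of these calls. Beside these genes, 2 of 7 macrophage markers were called higher with ozone at 24 h, against 0.684% of all genes. The sum of the 7 markers ran from 14.0 to 18.4 in ozone and from 11.2 to 12.3 in air. Their part in the values of Plaat3 and Pla2g2d was not tested.

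**Figure D4:**
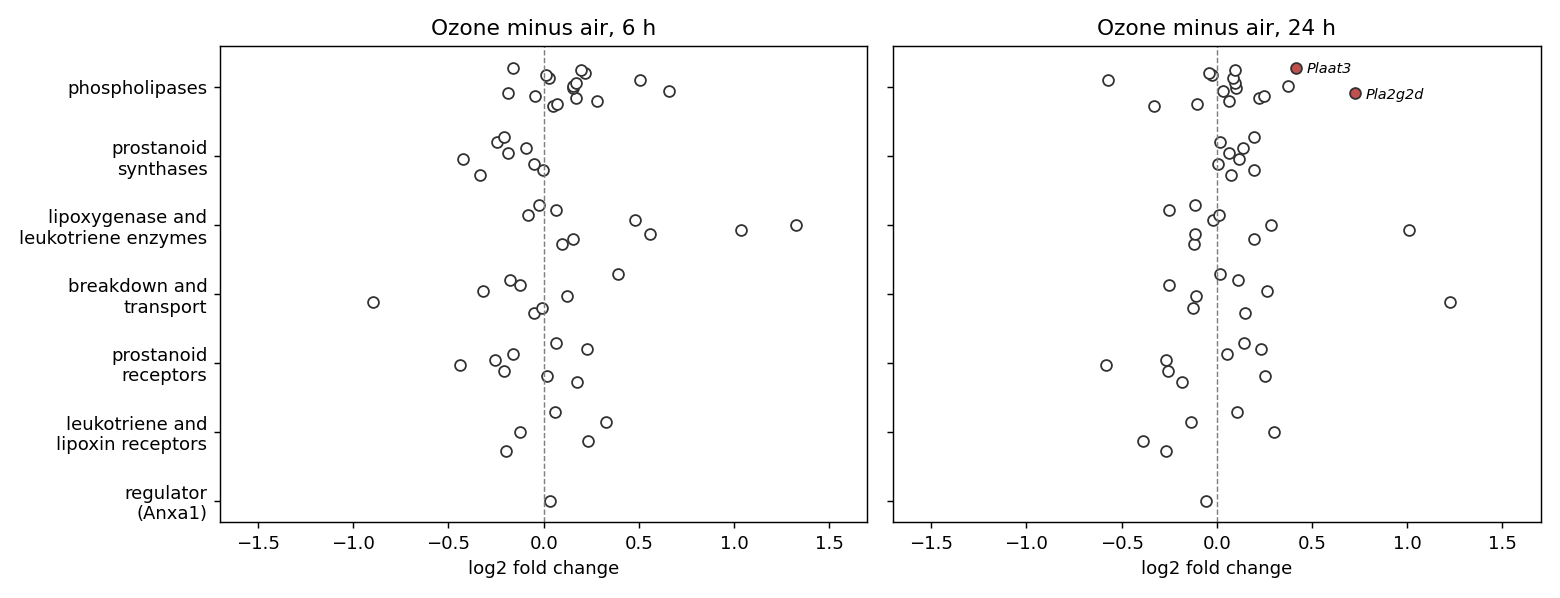
Log2 differences of the 55 other eicosanoid pathway genes, by role (vertical axis), in ozone against air at 6 h and at 24 h; each circle is 1 gene and red marks an adjusted p under 0.05 in limma. Circles lie on both sides of 0 for phospholipases, leukotriene enzymes and receptors, and the only red circles are Plaat3 at 0.41 and Pla2g2d at 0.72 at 24 h.

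Among the 8 prostanoid synthases outside the 10 genes, 0 were called with ozone at either time. All 8 lay below 0 at 6 h and all 8 above 0 at 24 h, beside 8354 of 21631 genes below 0 at 6 h and 11887 above 0 at 24 h. Akr1b3, an aldo-keto reductase that can make prostaglandin F2 alpha, gave -0.34 ± 0.098 at 6 h (adjusted p = 0.0609) and 0.076 at 24 h. Prxl2b, prostamide and prostaglandin F synthase, gave -0.42 ± 0.13 at 6 h (adjusted p = 0.064) and 0.12 at 24 h, and Tbxas1, thromboxane synthase, -0.21 ± 0.093 (adjusted p = 0.214) and 0.20 ± 0.093 (adjusted p = 0.379, limma). The changes between times were 0.41 for Akr1b3, 0.54 for Prxl2b and 0.40 for Tbxas1, with adjusted p of 0.225, 0.216 and 0.216. Akr1b3 passed the threshold at 6 h under some settings, for example normexp (-0.41, adjusted p = 0.0242), and so did Prxl2b (-0.46, adjusted p = 0.0202).

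Of the 9 other lipoxygenase and leukotriene enzymes tested, 0 were called with ozone at 6 h or 24 h. Dpep1, a dipeptidase that turns leukotriene D4 into E4, gave 0.48 ± 0.16 at 6 h (adjusted p = 0.106) and -0.022 at 24 h. It passed the threshold at 6 h in 1 of 16 left-out fits. Of 8 genes of breakdown and transport, 0 were called at either time. Akr1c18, an aldo-keto reductase of progesterone and prostaglandins, gave -0.89 ± 0.47 at 6 h and 1.22 ± 0.47 at 24 h (adjusted p = 0.291 and 0.239), and Ptgr1, prostaglandin reductase 1, -0.13 and -0.25 ± 0.091 (adjusted p = 0.193 at 24 h, limma). At 24 h, 1 of 16 alternatives called Akr1c18 and 2 of 16 called Ptgr1.

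The receptors that read these lipids were not called with ozone either, 0 of 8 prostanoid receptors and 0 of 5 leukotriene and lipoxin receptors at each time. Ptger3, the EP3 receptor for prostaglandin E2, gave -0.44 ± 0.16 at 6 h (adjusted p = 0.127) and -0.58 ± 0.16 at 24 h (adjusted p = 0.0761, limma). It passed the threshold at 24 h in 3 of 16 alternatives and 2 of 16 left-out fits, and in none at 6 h. Ltb4r1, the leukotriene B4 receptor of leukocytes, gave 0.33 ± 0.11 at 6 h (adjusted p = 0.102) and -0.13 ± 0.11 at 24 h (adjusted p = 0.718). All 4 ozone lungs lay above the air lungs for Ltb4r1 at 6 h, whereas Ptger3 overlapped at both times. In either direction, ozone and air did not overlap for 9.48% of all genes at 6 h. Of the 55 other pathway genes, 2 lay wholly above and 2 wholly below air at that time.

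Between the air groups 22 of the 55 genes were called, 9 higher and 13 lower, beside 49.9% of all genes, and their median was -0.11 against 0.01. Of all genes, 21.4% were called higher and 28.5% lower, and 10623 of 21631 lay below 0. By role, 4 of 8 prostanoid synthases were lower and 0 higher, and all 8 lay below 0. Phospholipases had 4 of 16 higher and 2 lower, leukotriene enzymes 2 of 9 higher and 0 lower, breakdown and transport genes 2 of 8 higher and 2 lower. Prostanoid receptors had 1 of 8 higher and 2 lower, and leukotriene and lipoxin receptors 0 of 5 higher and 2 lower. The remaining listed gene, Anxa1, coding for annexin A1, a restraint on phospholipase A2, was lower too (-0.49 ± 0.13, adjusted p = 0.00462). Of the genes named above, Plaat3 fell by 1.28 ± 0.10 (adjusted p = 5.38e-08), Ptgr1 by 0.93 ± 0.091 (adjusted p = 2.92e-07) and Prxl2b by 0.67 ± 0.13 (adjusted p = 0.000233, limma). Akr1b3 fell by 0.58 ± 0.098 (adjusted p = 9.56e-05) and Tbxas1, which platelets and macrophages make, by 0.43 ± 0.093 (adjusted p = 0.000851), although not with normexp (-0.17, adjusted p = 0.167).

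Beside these values, 3 of 5 platelet markers were called lower and 1 higher from air 6 h to air 24 h. Their sum ran from 11.4 to 16.6 in air at 6 h and from 5.18 to 6.05 in air at 24 h. Of 9 neutrophil markers, 2 were higher and 4 lower (sum 112 to 177, then 73.1 to 98.9). In this comparison 28.5% of all genes were called lower and 21.4% higher. The defining markers Pf4 and S100a9 were well above background on 16 of 16 arrays, and their part in the values of Ptgs1, Alox5ap, Tbxas1 and the others was not tested.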

How the data were processed

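Whole-lung RNA was measured on 16 single-colour Agilent arrays. Spot intensity was deposited as processed signal, background subtracted by Agilent Feature Extraction 10.7.1.1, per the file headers, and flags deposited with it (other columns) mark spots well above background or uneven. The authors' deposited table holds log2 values, quantile normalized separately at each time as its medians (6.41 and 6.73) show, and served as an alternative, without the air 24 h against 6 h comparison.

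Spots of a probe were averaged, log2 was taken and each array's 75th percentile subtracted. A probe was kept if 4 or more of the 16 arrays marked it well above background (32343 probes), 157 with an uneven spot were left out, and the brightest probe stood for a gene. Differences were tested with limma 3.58.1 in R 4.3.3 (lmFit, eBayes with trend, 1 mean per group), with Benjamini-Hochberg adjustment over 21631 genes and a threshold of 0.05, after checks on simulated data. Probes were named through RefSeq by accession (25097), symbol (6333) or synonym (1640), and 8104 kept the file's name. A probe named COX2 is mitochondrial and was left out.

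Named genes were the 10 members, pathway genes called with ozone, and the 4 with the smallest p in each ozone comparison. The members and lists were chosen with earlier results of these data known. Alternatives changed background correction, normalization, filter, probe choice, blocks, weights and covariates, or left out 1 array. Correlations used 1e+05 permutations. Exon annotation of probes was not used here.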

Additional observations from a re-analysis of the deposited data

Results flagged for a closer look

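For Ptgs2, ozone 6 h replicate 1 was far from the other lungs of its group: its level was -4.93, while the other 3 lay between -4.47 and -4.44, and the gap was 0.932 of the group's range. It was also the 1 array of the 16 on which this probe was not well above background. Without that lung the ozone difference at 6 h was 0.090 (adjusted p = 0.843, limma), against -0.030 with it. Of the 40 sets of 4 lungs examined (10 genes in 4 groups), 1 met this criterion, and chance gives about 1 set in 20.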

How the results depend on the processing

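Of the 10 genes (8 with the all-array filter), 0 were called with ozone at 6 h and 24 h in 16 alternatives, for the change in the 15 that gave it, and in 16 left-out fits. Between the air groups (4 called), normexp called 1 (Pla2g4a) and the filter requiring all 16 arrays 2, since it drops Ptgs2 and Alox15, and left-out fits called 3 to 5. Normexp turned Ptgs2 over time to 0.23 and Pla2g2d with ozone at 24 h to -0.25, and moved the median of all genes to 0.14 at 6 h, -0.13 at 24 h, -0.21 for the change and 0.20 between air groups. Of all genes called, those higher went from 295 of 970 to 152 of 953 at 6 h and from 148 of 434 to 326 of 652 at 24 h. Of the 55 other pathway genes, 0 were called at 6 h, against 2 with normexp, with array weights and within the slide of replicates 3 and 4, and 1 with the percentile over detected probes, the all-array filter, the mean of probes and eBayes with no trend (left-out fits 0 to 2). At 24 h 2 were called, against 0 with no filter, the fit on all probes, either slide alone and Xist as a covariate, 1 with the percentile over detected probes, the authors' deposited table, the mean of probes, slide as a block and eBayes with no trend, and 5 with array weights (left-out fits 0 to 2). For the change 0 were called, against 3 with normexp and 2 with array weights (left-out fits 0 to 2), and between air groups 22, with 20 to 24 in left-out fits. The causes of these moves were not tested except where the filter drops genes. Deviations of same-numbered lungs correlated at 0.0505 to 0.14 at 6 h and -0.00697 to 0.195 at 24 h. Of 4 ozone lungs at each time, 1 and 2 matched best with their own number. Same-numbered lungs also shared a slide, so these values cannot settle whether replicate numbers paired the lungs. The replicate block called 0, 0 and 0 of the 10 genes with ozone and 3 between air groups, and 0 pathway genes at 24 h. Signals of Ptgs2 and Alox15 near background, and 4 lungs per group, limit what these arrays can show.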
